A study of Mus musculus with 2 samples.

Results

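Integrins are the cell surface receptors that hold cells to the extracellular matrix, and laminins are the matrix proteins that many of them bind. Their genes were measured in hippocampal tissue by total RNA sequencing. Members were the protein-coding genes named Itga or Itgb with a number or a single letter, and those named Lama, Lamb or Lamc with a number. The rule found 36 genes of the 22028 protein-coding genes annotated: 17 for integrin α chains, 8 for integrin β chains and 11 for laminin chains, of which 5 encode α, 3 β and 3 γ chains. The rule uses gene names only, but it was set with earlier results of these data known.

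The tissue came from female mice of the hybrid strain B6CASTF1/J, aged 36 days, with no treatment or mutation named in the labels. The samples form 1 group of 2 libraries, numbered biological replicates 1 and 2, each made from 300 ng of RNA with external spike-in RNA added. Each library has a biosample of its own but both carry 1 shared donor identifier, so whether the tissue came from separate mice is not stated outright, and the spread given is that between these samples. With 1 group there was no contrast between conditions, and with 1 library on each side no test and no p-value could be had. The counts summed to 30125183 in replicate 2 and 32443497 in replicate 1. Over the 18246 genes whose mean count reached 10, the biological coefficient of variation was 0.0898.

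Every integrin is a pair of 1 α and 1 β chain, and the pair decides what is bound: collagens, laminins, proteins with the short motif RGD, or receptors on other cells. Every laminin is a trimer of 1 α, 1 β and 1 γ chain that is secreted and assembles into basement membrane. In brain, basement membrane lies under the endothelium of vessels, around mural cells and at the surface beneath the meninges, where the end feet of astrocytes are anchored, while integrins also act at synapses, in microglia and in the release of active TGF-β.

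The labelled tissue was checked against cell type markers. The 6 markers of hippocampal excitatory neurons were all detected and summed to 1906.5 TPM in replicate 2 and 2097.5 TPM in replicate 1. Marker sums for astrocytes, microglia and endothelial cells were close between the libraries, at 920, 152 and 60.9 TPM in replicate 2 and 947, 153 and 59.2 TPM in replicate 1. Those of neighbouring tissue were not. The 7 choroid plexus markers summed to 1292 TPM in replicate 2 and 26.3 TPM in replicate 1, and the 7 meningeal fibroblast markers to 112 TPM in replicate 2 and 56.5 TPM in replicate 1. Most of the choroid plexus sum was Ttr, with 1237 TPM in replicate 2 and 20.8 TPM in replicate 1. Igf2 held 62.5 and 24.7 TPM of the meningeal sum, in replicates 2 and 1. Oligodendrocyte markers went the other way, with 1068 TPM in replicate 2 and 1408 TPM in replicate 1.

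Several integrin chains exist in forms that differ in a short coding stretch. For 5 genes the stretches are printed here, because shares given further on turn on them, each for the 2 complete coding transcripts with the highest mean TPM. They are coding bases of GENCODE release M21 transcripts on build mm10, read 5′ to 3′ on the gene's strand. Lower case marks bases common to both forms and capitals mark bases that the form does not share with the other. Stop codons are not included.

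The α6 chain of Itga6 ends in 1 of 2 cytoplasmic tails, called A and B, that follow the same 30 bases. The A tail is encoded at chr2:71853534-71853638 (105 bases) and the B tail at chr2:71855854-71856012 (159 bases), both on the plus strand.
Itga6-201, tail A: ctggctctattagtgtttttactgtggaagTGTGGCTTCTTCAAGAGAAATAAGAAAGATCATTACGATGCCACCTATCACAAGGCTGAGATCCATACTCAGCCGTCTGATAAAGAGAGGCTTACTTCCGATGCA
Itga6-202, tail B: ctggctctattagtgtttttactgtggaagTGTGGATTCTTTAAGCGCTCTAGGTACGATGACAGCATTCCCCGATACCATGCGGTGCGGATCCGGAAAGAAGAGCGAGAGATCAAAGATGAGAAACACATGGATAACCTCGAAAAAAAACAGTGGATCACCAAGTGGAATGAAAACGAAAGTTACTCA

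Itga3 has the same arrangement on the minus strand of chromosome 11, with the shorter tail at chr11:95046483-95046590 (108 bases) and the longer at chr11:95045611-95045763 (153 bases).
Itga3-201: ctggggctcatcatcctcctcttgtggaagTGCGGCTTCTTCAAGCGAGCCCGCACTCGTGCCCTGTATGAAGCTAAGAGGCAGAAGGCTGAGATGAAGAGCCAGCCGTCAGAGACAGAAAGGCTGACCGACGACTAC
Itga3-203: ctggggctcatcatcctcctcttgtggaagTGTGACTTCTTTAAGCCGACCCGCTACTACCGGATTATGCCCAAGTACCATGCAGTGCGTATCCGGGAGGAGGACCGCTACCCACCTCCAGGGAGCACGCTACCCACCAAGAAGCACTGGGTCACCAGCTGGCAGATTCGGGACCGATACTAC

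Itga7 carries either of a pair of exons in the part of the α7 chain that lies outside the cell, at chr10:128941822-128941941 (120 bases) or chr10:128941445-128941576 (132 bases), each shown with 15 bases of the exon on either side.
Itga7-201: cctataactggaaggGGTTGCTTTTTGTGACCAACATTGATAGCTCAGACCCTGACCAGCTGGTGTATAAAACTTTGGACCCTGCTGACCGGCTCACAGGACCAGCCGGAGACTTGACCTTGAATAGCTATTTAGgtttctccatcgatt
Itga7-202: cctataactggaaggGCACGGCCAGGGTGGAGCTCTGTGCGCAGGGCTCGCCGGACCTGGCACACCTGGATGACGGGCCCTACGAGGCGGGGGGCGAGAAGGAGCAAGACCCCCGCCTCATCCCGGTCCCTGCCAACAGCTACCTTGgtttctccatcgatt

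Itgb5-202 keeps 29 bases at the end of an exon, chr16:33947853-33947881, that Itgb5-201 lacks, so that the reading frame after them differs. Itgam-201 begins an exon 3 bases earlier than Itgam-203, at chr7:128101634-128101636, and the forms are otherwise the same over the bases shown.
Itgb5-202: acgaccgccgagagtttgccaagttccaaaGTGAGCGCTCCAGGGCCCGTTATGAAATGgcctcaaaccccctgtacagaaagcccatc
Itgb5-201: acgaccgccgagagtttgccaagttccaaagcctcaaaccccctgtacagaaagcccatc
Itgam-203: cccttgcctcgagggagggcacggtggcag
Itgam-201: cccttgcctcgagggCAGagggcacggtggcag

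The 36 genes took a small part of the RNA. They held 19977 counts, or 0.0666% of the counts of annotated genes, in replicate 2 and 19508 counts, or 0.0604%, in replicate 1. Of the 36, 22 were detected, meaning 1 TPM or more in both libraries, against 57.6% of all protein-coding genes. TPM is abundance per RNA length, so levels can be set beside each other between genes. Detected were 10 of 17 integrin α, 5 of 8 integrin β, 3 of 5 laminin α, 2 of 3 laminin β and 2 of 3 laminin γ genes. The median over the 36 genes was 2.28 TPM, beside 3.20 TPM over all protein-coding genes, and the highest, Itgav, ranked 4392 of 22028. In bulk tissue, fewer cells of a type and less RNA per cell cannot be told apart.

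**Figure D1:**
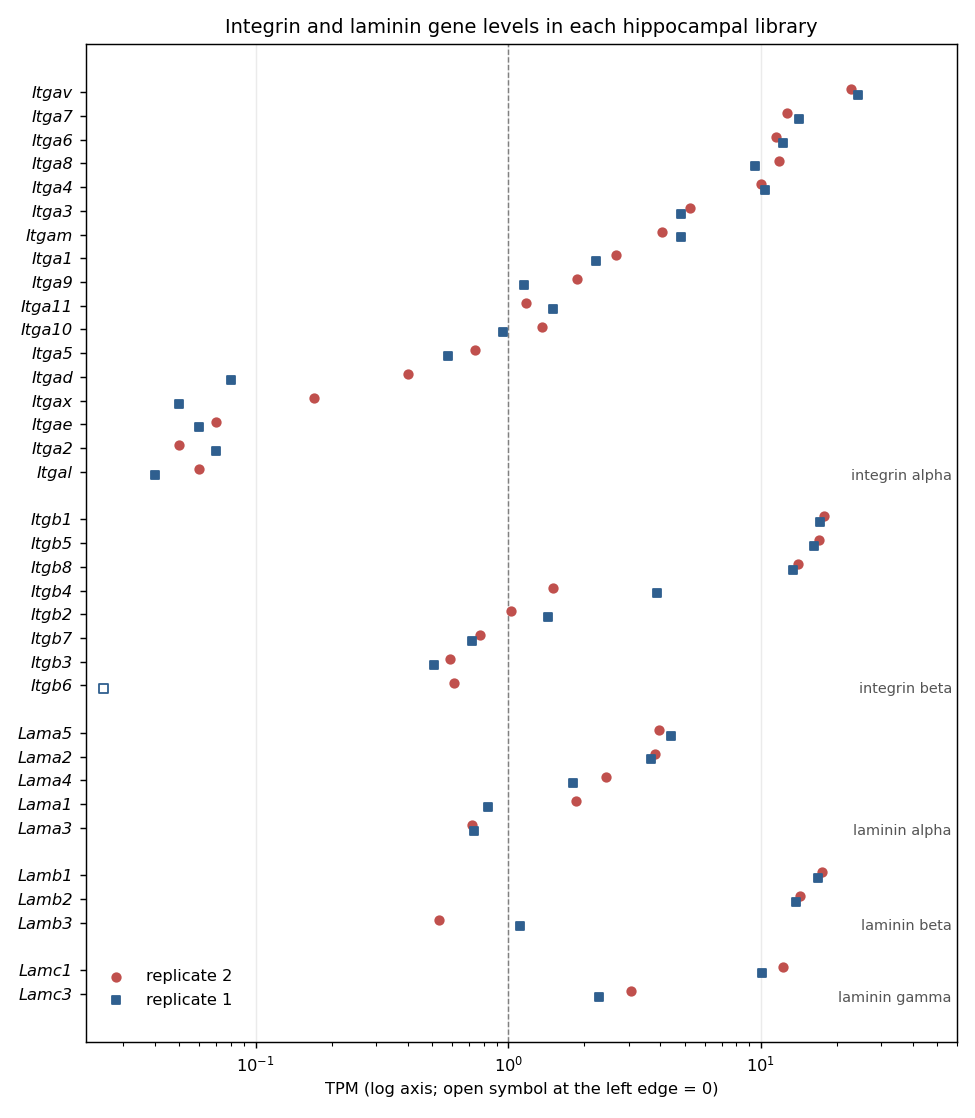
TPM of 35 integrin and laminin genes (log axis) in replicate 2 (circles) and replicate 1 (squares), grouped by chain and ordered by mean within each chain; the dashed line is 1 TPM and the open square at the left edge is a 0. Itgav stands highest in both libraries, and 22 genes lie right of the line in both. The pairs of symbols part most for Itgb6, whose 0 is drawn at the edge, and then for Itgb4, Lama1, Lamb3, Itgad and Itgax.

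Among integrin α chains, the receptors for RGD proteins and for laminin were the most abundant. The 3 RGD-binding α genes summed to 35.3 TPM in replicate 2 and 34.3 TPM in replicate 1, and the 3 laminin-binding ones to 29.4 TPM in replicate 2 and 31.2 TPM in replicate 1. The pair for α4 and α9 gave 11.9 and 11.6 TPM, the 4 collagen-binding genes 5.26 and 4.76 TPM, and the 5 leukocyte genes 4.78 and 5.05 TPM, in replicates 2 and 1. This grouping was made with the values known, and many α chains bind more than 1 kind of ligand. By complete coding transcripts the laminin-binding genes were ahead, with 18.1 and 18.5 TPM against 15.2 and 13.5 TPM for the RGD-binding ones, in replicates 2 and 1. A second quantification of the same reads also put them ahead, with 55.0 and 50.7 TPM against 52.0 and 47.0 TPM. The order of these 2 groups was therefore not settled.

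Itgav (ENSMUSG00000027087.11; chromosome 2, 83724397 to 83806916, plus strand) encodes αv, the chain that pairs with β1, β3, β5, β6 and β8 and binds fibronectin, vitronectin and latent TGF-β. It had 22.7 TPM in replicate 2 and 24.23 TPM in replicate 1, from 1981 and 1871 counts. In this quantification it was the most abundant member and held 27.0% ± 1.19 of all integrin α TPM (SD, n = 2), and its library values did not overlap those of the next gene, Itgb1. Yet 1 long transcript with a complete coding sequence, Itgav-201, carried only 11.77 TPM in replicate 2 and 10.33 TPM in replicate 1. The rest was assigned to the short, incomplete Itgav-205 and Itgav-206, which are 463 and 688 bases long and took 34.61 and 77.98 counts in replicate 2 and 54.97 and 91.19 counts in replicate 1. Counted by complete coding transcripts, Itgav had rank 5 of the 36, with 11.05 ± 1.02 TPM.

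The other RGD-binding α chains lay apart from each other. Itga8 encodes α8, the receptor for nephronectin that is needed in kidney development (chromosome 2, 12106632 to 12301922, minus strand). Its 11.81 TPM in replicate 2 and 9.45 TPM in replicate 1 came from 695 and 625 counts, but complete coding transcripts held only 2.90 and 2.71 TPM of it. This share, 24.6% in replicate 2 and 28.7% in replicate 1, was the lowest of the detected members in replicate 2 and in replicate 1. Transcripts with a retained intron, with no coding sequence, or marked for nonsense-mediated decay held the rest. An antisense gene, E030013I19Rik, overlaps Itga8 with 50 counts in replicate 2 and 34 in replicate 1. Itga5, the α5 chain of the classic fibronectin receptor, was not detected, with 0.74 TPM in replicate 2 and 0.58 TPM in replicate 1.

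All 3 laminin-binding α chains were detected. Itga7, the α7 chain best known as the laminin receptor of muscle (chromosome 10, 128933818 to 128958282, plus strand), had 12.69 TPM in replicate 2 and 14.17 TPM in replicate 1, from 726 and 908 counts. Itga6, whose α6 chain pairs with β1 or β4 (chromosome 2, 71745616 to 71858416, plus strand), had 11.45 TPM in replicate 2 and 12.20 TPM in replicate 1, from 892 and 926 counts. Before rounding these counts were not whole, which marks shared reads but not how many. Itga3, whose α3 chain pairs with β1 (chromosome 11, 95044474 to 95076801, minus strand), had 5.26 TPM in replicate 2 and 4.85 TPM in replicate 1. The muscle markers Ckm, Myh6 and Acta1 summed to 4.02 TPM in replicate 2 and 3.63 TPM in replicate 1, with 1 of 3 detected. Of the mural cell markers, Acta2 and Myh11 had 7.07 and 2.49 TPM in replicate 2 and 5.48 and 1.69 TPM in replicate 1. The part of these cells in the level of Itga7 was not tested.

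In each of these 3 genes 1 of the printed forms was ahead. The tail A form Itga6-201 had 6.35 TPM in replicate 2 and 5.12 TPM in replicate 1, and the tail B form Itga6-202 had 0 and 0.93 TPM. In the second quantification tail A held 99.998% of the pair in replicate 2 and 61.9% in replicate 1, against 100% in replicate 2 and 84.6% in replicate 1 in the first. For Itga3 the shorter tail of Itga3-201 held 68.5% of the pair in replicate 2 and 64.8% in replicate 1, from 368 and 314 counts, against 164 and 165 counts for Itga3-203. The exon of Itga7-201 held 78.4% of its pair in replicate 2 and 91.1% in replicate 1. The order within the pair was the same in both libraries and both quantifications for Itga6, Itga3 and Itga7, while the share of tail A in replicate 1 depended on the quantification.

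**Figure D2:**
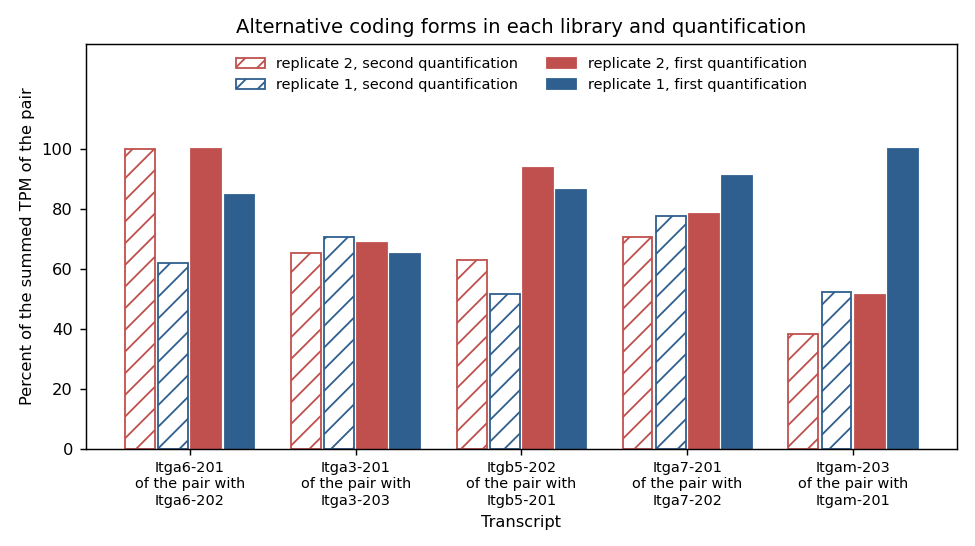
Share of the summed TPM of a pair of transcripts held by the first-named form, for 5 integrin genes, as bars in percent for replicate 2 (red) and replicate 1 (blue), hatched for the second quantification and filled for the first. Itga3-201 lies between 64.8% and 70.6% in all 4 bars, Itgb5-202 falls to 51.5% in the hatched bar of replicate 1, and Itgam-203 spans 38.1% (hatched, replicate 2) to 100% (filled, replicate 1).

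Itga4, whose α4 chain binds VCAM1 and fibronectin and is best known on lymphocytes (chromosome 2, 79255426 to 79333123, plus strand), had 10.05 TPM in replicate 2 and 10.43 TPM in replicate 1. It had 1629 and 1790 counts, more than Itga7 or Itga6 in either library, from a main transcript of 9767 bases, Itga4-201, which held 67.5% of the gene's TPM in replicate 2 and 68.9% in replicate 1. The T cell markers Cd3e, Cd3d and Cd8a were at 0 in both libraries, and the 4 T cell markers summed to 0.07 TPM in replicate 2 and 0.08 TPM in replicate 1. Cerkl overlaps Itga4 on the opposite strand, with 63 counts in replicate 2 and 88.23 in replicate 1. Itga9, whose α9 chain binds tenascin and VCAM1, had 1.87 TPM in replicate 2 and 1.16 TPM in replicate 1.

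The collagen-binding α chains were low. Itga1, of the α1β1 collagen receptor, had 2.67 TPM in replicate 2 and 2.23 TPM in replicate 1. Its counts of 404 and 375 were not whole, since reads were shared, and the gene Pelo lies within it on the same strand with 289 counts in replicate 2 and 310 in replicate 1. Itga11, a receptor of fibroblasts, had 1.18 TPM in replicate 2 and 1.51 TPM in replicate 1. Itga10, known from cartilage, passed 1 TPM only in replicate 2, with 1.36 TPM there and 0.95 TPM in replicate 1. Itga2, the collagen receptor of platelets and epithelia, had 0.05 and 0.07 TPM, from 8 counts in replicate 2 and 11 in replicate 1.

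Of the 5 leukocyte α genes only Itgam was detected. Itgam encodes CD11b, the α chain of complement receptor CR3 that microglia carry (chromosome 7, 128062640 to 128118491, plus strand), and had 4.08 TPM in replicate 2 and 4.82 TPM in replicate 1, from 417 and 405 counts. All 7 microglia markers were detected. Itgax and Itgad, which lie beside it on chromosome 7, had 6 and 8 counts in replicate 2 and 5 and 7 counts in replicate 1. Itgal, the LFA-1 α chain of lymphocytes, had 6 and 5 counts, and Itgae, the α chain of intraepithelial T cells, had 6 and 5 counts, in replicates 2 and 1. Against 417 and 405 counts of Itgam, none of the other 4 passed 8. The 3-base choice between Itgam-201 and Itgam-203 was resolved differently in the 2 libraries: Itgam-201 had 1.99 TPM in replicate 2 and 0 in replicate 1, and Itgam-203 had 2.08 TPM in replicate 2 and 3.43 TPM in replicate 1.

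Among integrin β chains 3 held nearly all of the RNA. The 8 genes summed to 53.4 TPM in replicate 2 and 53.3 TPM in replicate 1. Itgb1 had 17.76 TPM in replicate 2 and 17.09 TPM in replicate 1, Itgb5 had 17.06 and 16.27 TPM, and Itgb8 had 14.08 and 13.42 TPM. Their shares of β TPM were 32.7% ± 0.85, 31.2% ± 1.01 and 25.8% ± 0.84 (SD, n = 2).

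Itgb1 (chromosome 8, 128685654 to 128733200, plus strand) encodes β1, the most widely shared partner, which serves the laminin and collagen receptors. It had 1414 counts in replicate 2 and 1435 in replicate 1, and Itgb1-201 held 95.1% of its TPM. By complete coding transcripts it was the highest of the 36, at 16.6 ± 0.39 TPM. The next, Itgb5, lay at the same level with 17.05 TPM in replicate 2 and 16.07 TPM in replicate 1, so that the order of Itgb1 and Itgb5 differed between the libraries on this scale. In the second quantification Itgb5 was above Itgb1 on it in both libraries, with 29.1 and 27.8 TPM against 26.9 and 26.05 TPM in replicates 2 and 1. On the same scale Itgav, first by all transcripts, stood at 11.77 and 10.33 TPM, below both.

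Of the other β chains that pair with αv, Itgb5 and Itgb8 were abundant too. Itgb5 (chromosome 16, 33829665 to 33949338, plus strand), a β chain of vitronectin receptors, had 1210.6 counts in replicate 2 and 1151.2 in replicate 1, not whole since reads were shared. Its 29-base form Itgb5-202 held 63.0% of the pair in replicate 2 and 51.5% in replicate 1 in the second quantification, against 93.6% in replicate 2 and 86.3% in replicate 1 in the first. The balance between its forms was therefore not settled by these tables. Itgb8 (chromosome 12, 119158022 to 119238802, minus strand), whose β8 chain releases active TGF-β in brain, had the most counts of any member, 2445 in replicate 2 and 2492 in replicate 1, over a main transcript of 8403 bases.

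The other β chains were low. Itgb4, the β4 chain of hemidesmosomes that pairs with α6, had 1.51 TPM in replicate 2 and 3.87 TPM in replicate 1, although its counts were close, 189 and 230. The short transcript Itgb4-207, of 521 bases, had 0 TPM in replicate 2 and 2.26 TPM in replicate 1 on 22.4 counts, and complete coding transcripts had 1.49 TPM in replicate 2 and 1.57 TPM in replicate 1. The gap between the libraries in TPM was thus carried by 1 short transcript. Itgb2, the β2 chain shared by leukocyte integrins, had 1.03 TPM in replicate 2 and 1.44 TPM in replicate 1, from 62 and 95 counts, and its complete transcripts fell below 1 TPM in replicate 2.

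The remaining 3 β genes were not detected. Itgb7, the gut-homing β7 chain of lymphocytes, had 18 counts in replicate 2 and 22 in replicate 1. Itgb3, the β3 chain of platelets, osteoclasts and endothelium, had 75 counts in replicate 2 and 68 in replicate 1, or 0.59 and 0.51 TPM. The 4 platelet markers summed to 2.95 TPM in replicate 2 and 1.57 TPM in replicate 1. Itgb6, the epithelial β6 chain, had 6 counts in replicate 2 and 0 in replicate 1, where a count of 0 allows up to 3 counts, or 0.0929 CPM (counts scaled to library size), although the second quantification gave it 48.0 counts in replicate 2 and 30.1 in replicate 1. Of the 5 β chains that pair with αv, Itgb1, Itgb5 and Itgb8 were thus each above 13 TPM in both libraries, while Itgb3 and Itgb6 were below 1 TPM in both.

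The laminin genes were led by the β and γ chains. The 3 β genes summed to 32.2 TPM in replicate 2 and 31.7 TPM in replicate 1, the 3 γ genes to 16.3 and 13.3 TPM, and the 5 α genes to 12.7 and 11.5 TPM. By complete coding transcripts the sums were 22.02 and 19.46 TPM for β, 13.6 and 11.8 TPM for γ and 7.13 and 6.38 TPM for α, in replicates 2 and 1. Although a trimer holds 1 chain of each kind, α RNA was the least and β RNA the most abundant on both scales and in both libraries.

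Lamb1, the β1 chain of most early and vascular laminins (chromosome 12, 31265234 to 31329644, plus strand), had 17.39 TPM in replicate 2 and 16.85 TPM in replicate 1, from 1971 and 1864 counts. Lamb2, the β2 chain of mature basement membrane and of the synapse between nerve and muscle (chromosome 9, 108479736 to 108490530, plus strand), had 14.27 TPM in replicate 2 and 13.77 TPM in replicate 1. In the first quantification only 48.0% of Lamb2 in replicate 2 and 41.6% in replicate 1 lay in complete transcripts. On that scale Lamb2 had 6.85 and 5.73 TPM against 14.91 and 13.38 TPM for Lamb1. The second quantification put 47.1% of Lamb2 in complete transcripts in replicate 2 and 81.9% in replicate 1. Lamb1 held 53.6% ± 0.65 of β TPM by all transcripts and 68.2% ± 0.74 by complete ones (SD, n = 2). Lamc1, the γ1 chain of most laminins (chromosome 1, 153218922 to 153332786, minus strand), had 12.24 TPM in replicate 2 and 10.14 TPM in replicate 1 and held 75.9% ± 0.84 of γ TPM. Lamc3, the γ3 chain known for cortical malformation when mutated in people, had 3.06 TPM in replicate 2 and 2.29 TPM in replicate 1.

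Of the α chains, which carry the part of laminin that receptors bind, 3 were detected, averaging between 2.12 and 4.18 TPM. Lama5, the broadly made α5 chain (chromosome 2, 180176373 to 180225859, minus strand), had 3.94 TPM in replicate 2 and 4.41 TPM in replicate 1. Lama2, the α2 chain lost in a congenital muscular dystrophy that also affects brain (chromosome 10, 26980036 to 27619758, minus strand), had 3.80 TPM in replicate 2 and 3.69 TPM in replicate 1. Lama4, the α4 chain of vessel walls, had 2.43 TPM in replicate 2 and 1.80 TPM in replicate 1. Lama5 came first by all transcripts, with 34.7% ± 5.34 of α TPM, but by complete transcripts Lama2 came first with 31.7% ± 3.95, against 26.3% ± 5.26 for Lama5 (SD, n = 2). These shares overlap within their spread, so the order of Lama5 and Lama2 could not be settled.

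Lama1, the α1 chain of the earliest basement membranes, passed 1 TPM only in replicate 2, with 1.85 TPM there and 0.83 TPM in replicate 1. Its complete transcript Lama1-201 had 0.83 TPM in both libraries, from 176 counts in replicate 2 and 184 in replicate 1, and the short Lama1-202 made up most of the difference on 8.41 counts. Lama3 and Lamb3, which encode an α and a β chain of epithelial laminin, were undetected. Lama3 had 0.72 TPM in replicate 2 and 0.73 TPM in replicate 1, and Lamb3 had 0.53 TPM in replicate 2 and 1.11 TPM in replicate 1. The epithelial marker Krt14 was at 0 in both libraries, and the 4 epithelial markers summed to 0.40 TPM in replicate 2 and 0.55 TPM in replicate 1. Lamb3 is overlapped by Hsd11b1 on the opposite strand, which had 512 counts in replicate 2 and 608 in replicate 1, against 29 and 42 for Lamb3.

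Across all 36 genes, 29 of the 35 neighbouring pairs in the order by mean TPM had library values that overlapped. The 6 pairs that stood apart were Itgav above Itgb1, Itgb5 above Lamb2, Itga7 above Itga6, Itga4 above Itga3, Itga3 above Itgam and Lama5 above Lama2. This order is by all transcripts of the first quantification. By complete coding transcripts Lama2, at 2.13 TPM, lay above Lama5, at 1.79 TPM, and Itgb1 lay above Itgav. Below Itgav, 10 genes from Itgb1 to Itga4 averaged between 10.2 and 17.4 TPM, and a gap followed down to Itga3 at 5.06 TPM.

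Short or incomplete transcripts took much of the TPM of several members. In the 22 detected members, complete coding transcripts held a median of 69.9% of the gene's TPM, beside 81.9% over the 12679 detected protein-coding genes. The share spanned 26.4% for Itga8 to 100% for Itga11. In the first quantification it was under 60% in both libraries for Itgav, Itga7, Itga6, Itga8, Itga1, Lama5, Lama2 and Lamb2. By mean TPM over the libraries the highest transcript was a complete one in all 22 members, with Itgb4-202 and the incomplete Itgb4-207 tied, against 89.3% of detected protein-coding genes with more than 1 transcript. In replicate 2 alone this held for 22 members and in replicate 1 alone for 19, the exceptions being Itga8, Lama5 and Itgb4. In the second quantification, of the genes named as under 60%, only Itga6 and Itga8 were so in both libraries. Itga6 had 37.7% there in replicate 2 and 48.9% in replicate 1, and Itga8 had 19.2% and 29.9%. Low shares of the other genes named thus depended on the quantification.

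**Figure D3:**
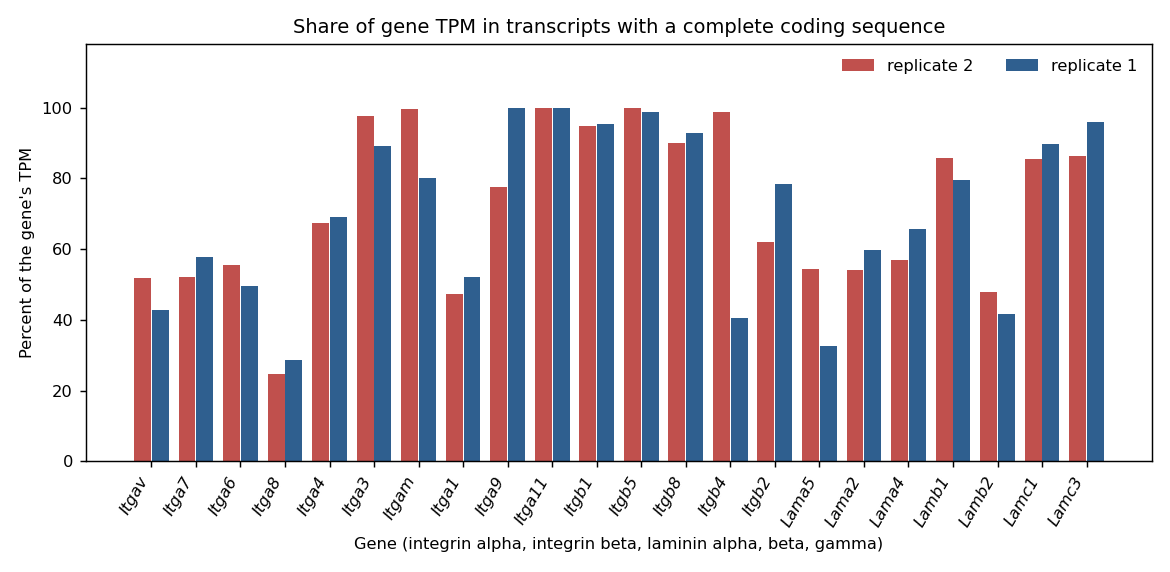
Percent of each gene's TPM that lies in transcripts with a complete coding sequence, as bars for replicate 2 (red) and replicate 1 (blue), for the 22 detected genes ordered by chain and by level within each chain. Itga8 is lowest, at 24.6% and 28.7%, and Itgb4, Itga9 and Lama5 differ most between the libraries. All bars are of the first quantification.

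The second quantification of the same reads changed the order at the top. There Itgb5 had rank 1, with 33.7 TPM in replicate 2 and 28.8 TPM in replicate 1, and Itgav rank 2, with 27.8 TPM in replicate 2 and 32.9 TPM in replicate 1. Itga6 also stood above Itga7 by mean, with 26.4 and 20.7 TPM against 18.6 and 21.8 TPM in replicates 2 and 1. As a share of protein-coding TPM, 1 of the 22 detected members differed over 2-fold between the second and the first quantification, against 1.41% of detected protein-coding genes. This was Itga9, which was higher in the second by 1.54 on the log2 scale. There the 649-base Itga9-205 was given 5.97 TPM in replicate 2 and 3.28 TPM in replicate 1, against 0.16 and 0 TPM in the first, while the complete Itga9-201 had 2.23 and 1.84 TPM against 1.45 and 1.16 TPM. An antisense gene, Gm2415, overlaps Itga9 with 333 counts in replicate 2 and 317 in replicate 1, more than the 230 and 189 counts of Itga9 itself. The highest transcript was the same in both quantifications for 19 of 22 members, against 75.4% of detected protein-coding genes with more than 1 transcript, and the exceptions were Itgb4, Itgam and Itga9.

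Ratios between the libraries were taken for the 23 members whose mean count reached 100. Of these, 0 were past 1.5-fold in either direction after TMM scaling, against 1.34% of all 12651 genes at that count. That background was 1.08% higher and 0.253% lower in replicate 2. With 23 genes, 0 lies near that share and does not set the members apart. Past 1.2-fold were 4, against 9.3% of all genes. Lama5, Lamc3 and Itga9 were higher in replicate 2 (background 6.05%), and Itga11 was lower there (background 3.25%). Lama5 had 561 counts in replicate 2 and 411 in replicate 1, a log2 ratio of 0.52 with a 95% exact binomial interval of 0.34 to 0.71. Such intervals cover counting error only. The deposited TPM put Lama5 the other way, at 3.94 TPM in replicate 2 and 4.41 TPM in replicate 1, where the 451-base Lama5-202 took 1.08 and 1.73 TPM on 8.51 and 14.35 counts.

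The laminins leaned to replicate 2. All 9 laminin genes at that count had a log2 ratio above 0, spanning 0.09 for Lama3 to 0.52 for Lama5. By deposited TPM this held for 7, without Lama3 and Lama5, and in the second quantification for 8, without Lama3. Their median was 0.21 beside −0.02 over all genes, of which 44.5% were above 0. For 5 of the 9 the counting interval lay above 0: Lamb1, Lamb2, Lamc1, Lama5 and Lamc3. Lamc1 had 1790 counts in replicate 2 and 1625 in replicate 1, a log2 ratio of 0.21. Lamc3 had 385 and 309 counts and a ratio of 0.39. No laminin reached 1.5-fold. With external spike-in scaling the median over all genes is 0.25 in place of −0.02, so that these ratios are to be read relative to the scaling.

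The integrins were more mixed. Of 14, 10 had a ratio above 0, with a median of 0.08. The counting interval lay above 0 for Itgav, Itgb5, Itga8, Itga3 and Itga9, at ratios of 0.15 to 0.36, and below 0 for Itga7 and Itga11. Of these genes, Itgav turned to −0.09 by deposited TPM and Itga7 to 0.01 with spike-in scaling, while the others kept their direction on both. Itga7 had 726 counts in replicate 2 and 908 in replicate 1, a log2 ratio of −0.25 with an interval of −0.39 to −0.11. Itga11 had 129 and 173 counts and a ratio of −0.35. Itgb8, Itgb1 and Itga4 had ratios of 0.05, 0.05 and −0.06, with intervals that held 0.

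**Figure D4:**
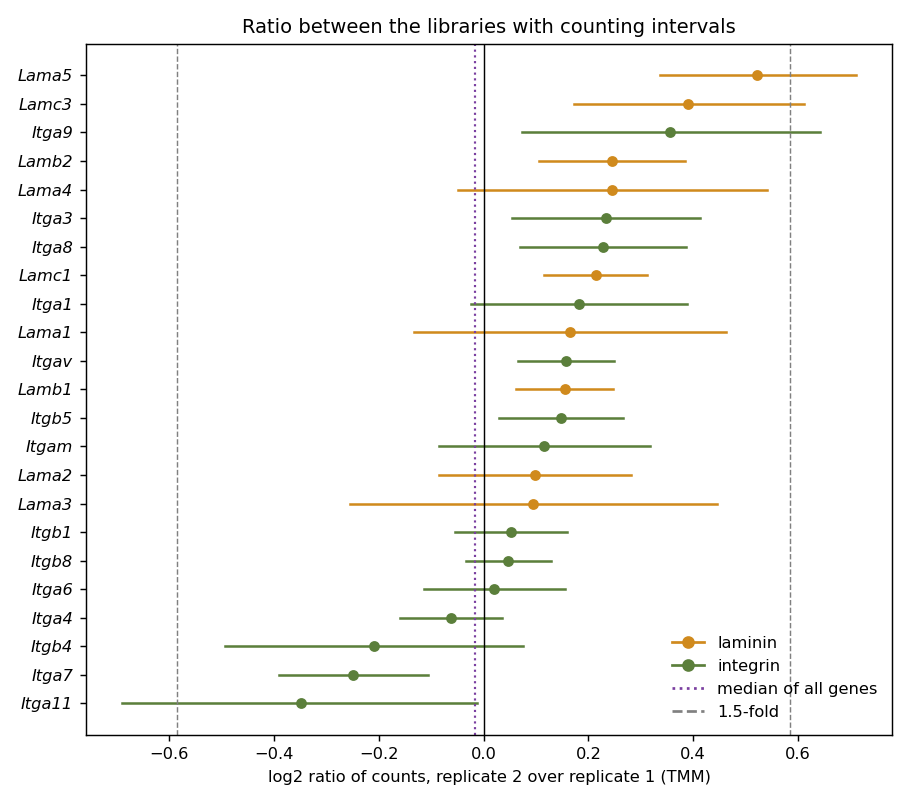
Log2 ratio of TMM-scaled counts, replicate 2 over replicate 1, for the 23 members whose mean count reached 100 (points: laminins orange, integrins green), with 95% exact binomial counting intervals as bars, the median of all genes as a dotted line and 1.5-fold as dashed lines. All 9 laminins lie right of 0 and no member's point passes 1.5-fold.

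Markers of neighbouring tissue moved the same way as the laminins. The 6 meningeal fibroblast markers at that count had a median log2 ratio of 0.71. Of them, 4 were past 1.5-fold higher in replicate 2 (Col1a1, Col1a2, Col3a1 and Igf2), against 1.08% of all genes. Dcn was at 0.57 and Slc6a13 at only 0.07. The 5 choroid plexus markers at that count had a median of 4.28, and no marker of either list was at 0 in either library. Mural cell markers had a median of 0.29 and endothelial markers one of 0.08. The mural markers were split, with Acta2 at 0.49, Myh11 at 0.52, Pdgfrb at 0.08 and Rgs5 lower in replicate 2, at −0.16. The part of these cells in the laminin ratios was not tested.

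Most genes for the proteins that build basement membrane with laminin were detected, but levels were uneven. Of 13 genes, 10 passed 1 TPM in both libraries, against 57.6% of all protein-coding genes. By median, though, these 13 reached only 2.35 TPM (replicate 2) and 2.16 TPM (replicate 1). Over all protein-coding genes it was 3.20 TPM. The 3 highest stood far above that. Sparc, a collagen-binding matrix protein, averaged 128 TPM, Agrn, the proteoglycan agrin, 57.4 TPM, and Col4a1, a chain of the collagen IV network, 20.8 TPM. Of 10 whose mean count reached 100, 2 were higher in replicate 2 past 1.5-fold, against 1.08% of all genes in that direction. Nid2, which links laminin to collagen IV, had 196 counts in replicate 2 and 120 in replicate 1, a log2 ratio of 0.78. Col18a1, of vessel basement membrane, had 227 and 144 counts and a ratio of 0.73. The median log2 ratio of the 10 was 0.30.

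Dystroglycan is the other main laminin receptor of brain, and its sugar chains bind laminin. Of 15 genes on its list 13 were detected, against 57.6% of all protein-coding genes. Dmd, the dystrophin gene, averaged 30.4 TPM and Dag1, dystroglycan itself, 30.1 TPM. Dag1 had 29.15 TPM in replicate 2 and 31.14 TPM in replicate 1, above Itgb1, Itga7, Itga6, Itga3 and Itgb4 in both libraries. Of 13 whose mean count reached 100, 1 was higher in replicate 2 past 1.5-fold, against 1.08% of all genes in that direction. This was Bcam, a receptor for the α5 chain, only just past it, with 281 counts in replicate 2 and 197 in replicate 1. Its log2 ratio was 0.59, beside a list median of −0.05.

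Of the genes that act on the inner side of integrins, 25 of 26 were detected, against 57.6% of all protein-coding genes. Past 1.5-fold were 0 of the 25 whose mean count reached 100, against 1.34% of all genes, so that 0 lies near that share. The kinase Ptk2b averaged 309 TPM, Src 60.5 TPM and the focal adhesion kinase Ptk2 58.0 TPM. The median log2 ratio was 0.01. Among 14 ligands other than laminins, 9 were detected and 0 of 10 were past 1.5-fold, with a median of 0.15. Both counts lie near the shares over all genes. Icam5, an adhesion protein of forebrain neurons, averaged 150 TPM, Mfge8, an RGD protein that αv integrins bind, 64.3 TPM, and Tnr, tenascin-R of perineuronal nets, 59.6 TPM. Madcam1, the ligand of the α4β7 pair, was at 0 in both libraries.

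Of 7 genes for TGF-β ligands and the proteins that hold them latent, 6 were detected, against 57.6% of all protein-coding genes. Past 1.5-fold were 0 of the 6 whose mean count reached 100, near the 1.34% of all genes. Their median log2 ratio was 0.07. Tgfb2 averaged 13.9 TPM, Ltbp3, a latent TGF-β binding protein, 11.4 TPM and Tgfb3 5.65 TPM. Of 6 genes with names like those of the members but outside the rule, 3 were detected and 0 of 2 were past 1.5-fold, both near the shares over all genes. Itgb1bp1, which binds the tail of β1, averaged 16.2 TPM, Itgbl1 3.86 TPM and Itgb3bp 2.26 TPM, and Itgb2l was at 0 in both libraries.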

How the data were processed

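Total RNA of 2 hippocampal libraries was analysed on build mm10. The authors deposited expected counts and TPM per gene and, in a first transcript table, per transcript, with the percent of a gene's TPM each transcript takes, per the file headers. A second transcript table holds estimated counts and TPM of a second quantification, as deposited. Its column names are those of kallisto and the others those of RSEM. The sources used here give neither software versions nor the use of strand, so reads of overlapping genes may be mixed. All 55536 gene identifiers matched GENCODE M21. Another 26248 numbered entries, which name no gene, took 4.88 counts in replicate 2 and 4 in replicate 1 and were left out of library sizes.

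Expected counts were rounded and scaled with edgeR 4.0.16 (TMM, prior count 0.5) in R 4.3.3, checked on simulated data. Python 3.11.15, pandas 2.3.3, numpy 2.4.6, scipy 1.17.1 and matplotlib 3.10.9 were used for all other steps, and DESeq2 1.42.0 for another set of size factors. Counts that were not whole within 0.005 mark shared reads, seen in 4 members (Itgb5, Itga6, Itga1, Itga10). Complete coding transcripts are protein-coding ones with no tag for a missing start or end, a scale added after the data were seen. The members and lists were chosen with earlier results of these data known. By the rule every member is named, and of each list the 3 highest by mean TPM and those past 1.5-fold at a mean count of 100 or more; 1 member and 1 list gene are not reported here. Alternatives were other scalings, minimums and folds, the second quantification and each library alone.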

Additional observations from a re-analysis of the deposited data

How the results depend on the processing

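No paired analysis was possible because the samples form 1 group. The second quantification gave a median member level of 4.25 TPM in place of 2.28, complete coding transcripts 1.33, and single libraries 2.02 to 2.15. At 5 TPM, 11 members were detected in place of 22; single libraries gave 23 to 24. Past the fold were 3 members with spike-in scaling (Lama5, Lamc3 and Itga9), 3 by deposited TPM (Itgb4, Itga9 and Lama1), 4 at 1.2-fold and 1 with no minimum count (Itgb6), in place of 0; it was also 0 with DESeq2 size factors, total counts, the second quantification's counts, 2-fold and minimums of 10, 50 and 500. The integrin median ratio was 0.35 with spike-in scaling, 0.00097 by deposited TPM, 0.046 in the second quantification and 0.13 at a minimum count of 50, in place of 0.08. The laminin median was 0.48 with spike-in scaling and 0.051 by deposited TPM, in place of 0.21. In the second quantification Itgav held 21.5% of its chain's TPM, Itgb1 31.0% (behind Itgb5 with 34.6%), Lamb1 62.0% and Lamc1 74.1%, and by complete transcripts Itgav 22.8%, Itgb1 33.8%, Lama5 26.3%, Lamb1 68.2% and Lamc1 77.1%. Single libraries gave 26.2% to 27.9% for Itgav, 32.1% to 33.3% for Itgb1, 30.9% to 38.5% for Lama5, 53.1% to 54.0% for Lamb1 and 75.3% to 76.5% for Lamc1. The median major transcript share was 61.9%, with 58.4% in the second quantification and 64.2% to 66.9% in single libraries. Past 1.5-fold between the quantifications were 2 members in place of 1 past 2-fold, with 1 to 2 in single libraries. The cause of each shift was not tested. At 100 counts the counting error limits the ratios, and genes under 10 counts have no usable level.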
